A study of Mus musculus with 21 samples.

Results

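The 7 arrays described here hold RNA from mouse CD8+ T cells that had spent 48 h in fresh medium after activation with beads, and they are 7 of the 21 arrays of the series. The arrays were chosen by their labels alone. The wildtype mice gave splenic T cells, which were activated with beads against CD3 and CD28 and kept in complete RPMI with 2-mercaptoethanol. CD8+ cells were then re-isolated by magnetic separation (MACS), and their RNA was hybridised to 1-colour Affymetrix arrays. The remaining 14 arrays are of cells in medium conditioned by WEHI-3B leukaemia cells or by dendritic cells, and they are not compared here. The labels give no strain, sex or age, and call the arrays biological replicates without saying whether each came from a separate mouse. They also do not say whether the 48 h included contact with the beads throughout, and no array of resting cells is part of the description.

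A naive CD8+ T cell recognises peptide on MHC class I through its T cell receptor, with CD8 as coreceptor, and needs costimulation, mainly through CD28, to become a cytotoxic effector. Beads that carry antibodies to CD3 and CD28 replace both signals. In the following days such cells grow, divide and turn to aerobic glycolysis, become responsive to interleukin 2, and build the granules of granzymes and perforin with which they kill. Memory and naive cells are marked by other genes, among them those for homing to lymph nodes.

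Each value is a log2 expression value from robust multi-array averaging (RMA), and a level is the mean over the 7 arrays with its SD. Of 22203 transcript clusters, 19572 carried 1 gene symbol, and these gave 19505 genes. Gene means ran from 2.39 to 12.92, with the median gene at 5.42. A percentile states where the mean of a gene lies among the 19505 genes. Different genes are read by different probes, so a percentile is a coarse place and does not order the RNA amounts of 2 genes. RMA gives no detection call. As a reference for low signal, the level below which 95% of 1427 olfactory, vomeronasal and trace amine receptor genes lay was 4.29, at percentile 35.5. By that reference 12588 genes, or 64.5% of all, lay above it. It is no limit of detection, because 20 of 35 genes of other tissues, such as proteins of liver or muscle, also lay above it. Of those 35, 33 lay at or below percentile 60.6, and only *Nphs1*, a kidney protein (percentile 78.4), and *Tg*, thyroglobulin (percentile 85.6), lay higher. Statements on abundance below therefore rest mainly on the top 25% of genes, which begin at a log2 level of 7.68, and on the top 10%, which begin at 9.09.

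The genes that mark CD8+ T cells were near the top in every array. *Cd8a*, the alpha chain of the coreceptor, had a log2 level of 11.69 ± 0.04 (SD, n = 7), and its lowest and highest arrays were 11.63 and 11.73. *Cd8b1*, the beta chain, had 11.70 ± 0.09 and *Cd3e*, which couples the receptor to signalling, had 11.76 ± 0.13. All 3 lay above percentile 99. Of 19 measured genes of the receptor complex and its proximal signalling, 19 lay in the top 25% and 16 in the top 10%, with a median percentile of 97.6. The highest was *Ptprc*, the phosphatase CD45, at percentile 99.9, and the lowest was *Ptprcap*, a protein associated with it, at percentile 83.0. Among 8 regulators of the CD8 lineage, *Ikzf1*, the lymphoid factor Ikaros, was highest at percentile 99.3 and *Runx3*, the factor that silences CD4 in CD8+ cells, lay at 99.1. *Tbx21*, which encodes T-bet, was lowest of the 8 at percentile 69.8.

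The 25 genes of highest mean held 5 ribosomal protein genes, 7 histone genes and 4 genes of translation factors or poly(A) binding protein, and none had an SD above 0.0828. *Eef1a1*, an elongation factor, had 12.76 ± 0.02 and *Actb*, actin, 12.60 ± 0.06. The histone genes *H3c14* and *H3c15* held the same values in all 7 arrays, and near-identical histone copies are not separated by these probes.

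Markers of other cells were mostly low, with exceptions. In these bulk samples, fewer cells of a type and less RNA per cell cannot be told apart. Over 6 lists of B cell, macrophage, dendritic cell, neutrophil, erythroid and stromal markers, 5 of 74 measured genes lay in the top 25%. The 5 were *Pecam1*, an adhesion molecule that T cells can also carry (percentile 88.8), *Bst2*, an interferon-induced surface protein (90.5), *Cd72*, a B cell lectin (84.3), the MHC class II chain *H2-Ab1* (82.1) and the protease gene *Ctss* (80.9). Some defining markers were in the lower part of the table. The B cell surface gene *Ms4a1* lay at percentile 16.8 and the macrophage receptor *Csf1r* at 33.3. The dendritic cell receptor *Clec9a* lay at 4.05 and the neutrophil protein *S100a8* at 2.19. Of these, *Ms4a1*, *Clec9a* and *S100a8* were the lowest of their lists. Other markers lay higher, such as *Cd79b* of B cells at percentile 66.8 and the MHC class II chain *H2-Aa* at 57.6. The highest neutrophil marker lay at 54.3, and the highest erythroid or platelet marker at 63.6. List medians ran from percentile 26.1 for macrophage markers to 48.5 for erythroid and platelet markers. *H2-Ab1* ranged from 7.82 in replicate 4 over a median of 8.49 to 8.65 in replicate 1. *H2-Aa*, the partner chain, was 7.00 in replicate 1 and between 5.79 and 6.39 in the other arrays. Replicate 1 was also the highest array for 2 of the 3 B cell markers above the reference level, among them *Cd79b*, at 7.30. It was the highest array in 24.7% of all genes above that level, and 3 markers are too few to set against that share. It was likewise the highest for 10 of the 20 genes of other tissues above that level, whose mean deviation there was 0.18. Replicate 1 also had the highest mean deviation for B cell (0.30), dendritic cell (0.23) and erythroid or platelet (0.23) markers. The same held for stromal (0.21) and macrophage (0.12) markers, but not for neutrophil markers, which were highest in replicate 3 (0.11). The part of other cells in the values of replicate 1 was not tested. A label field names CXCL12-abundant reticular cells in place of T cells. None of the 5 markers of such cells was in the top 25%. *Cxcl12*, the chemokine that names them, had a log2 level of 5.45 ± 0.19 at percentile 50.2, *Kitl*, the ligand of KIT, lay at 43.9, *Pdgfrb*, a growth factor receptor, at 42.7, *Foxc1*, a factor of the marrow niche, at 13.3 and *Lepr*, the leptin receptor, at 5.79.

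**Figure D1:**
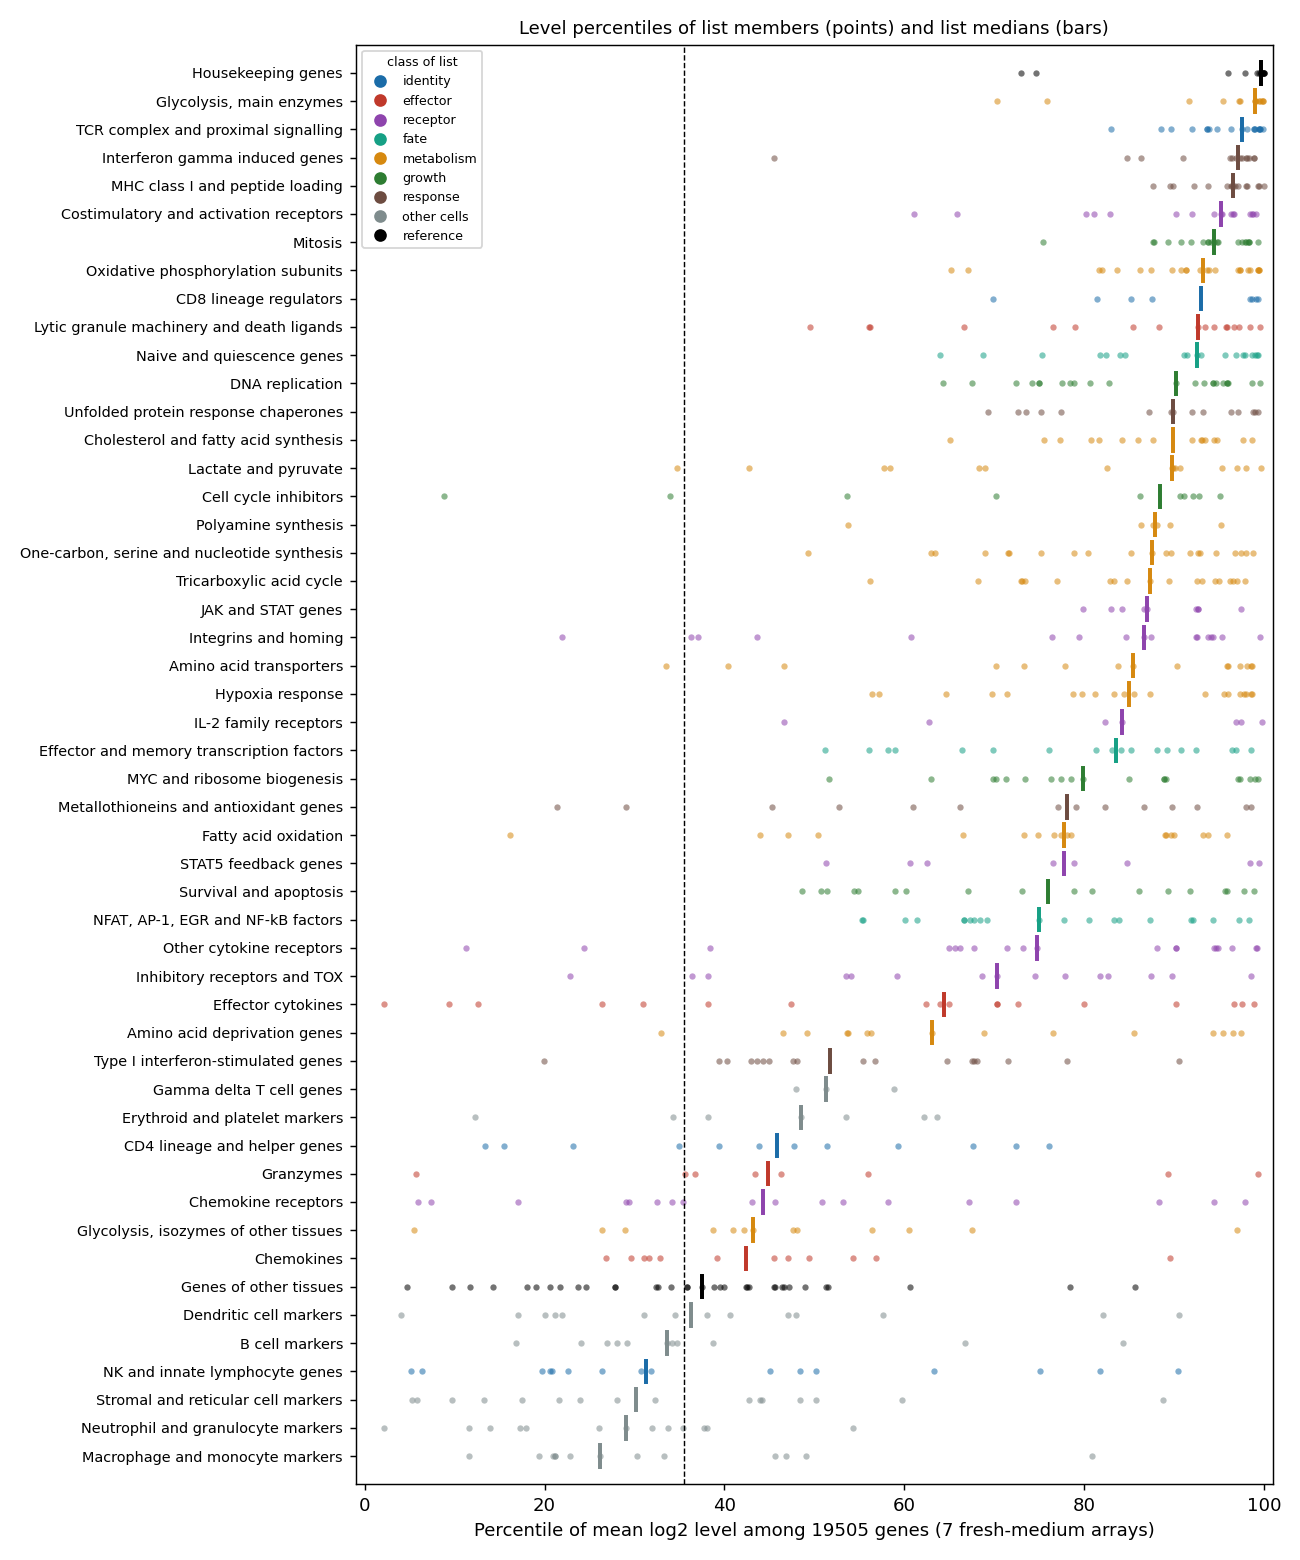
Percentile of the mean log2 level of each measured member (points) of 50 gene lists over the 7 fresh-medium arrays, with the list median as a bar and the reference level at percentile 35.5 as a dashed line. Lists of glycolysis, T cell receptor and interferon gamma induced genes lie at the right, and lists of macrophage, neutrophil and stromal markers at the left.

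Genes of CD4+ helper cells and of natural killer cells were lower than those of CD8+ cells, apart from a few receptors. Of 12 helper genes, *Cd4* itself was highest, at percentile 76.1 with 7.77 ± 0.31. It was lowest in replicate 6, at 7.25, and highest in replicate 7, at 8.16. *Il21*, which encodes a helper cytokine, was lowest of the 12 at percentile 13.4, *Cd40lg*, the CD40 ligand of helper cells, lay at 43.9 and *Zbtb7b*, the CD4 lineage factor, at 59.3. Of 16 natural killer and innate genes, *Klrd1*, which encodes CD94 and is also found on activated CD8+ cells, was highest at percentile 90.5. *Klrk1*, the receptor NKG2D, lay at percentile 75.1, while *Ncr1* and *Klrb1c*, receptors that mark natural killer cells, lay at 19.8 and 5.16. How many cells carried CD4 or natural killer genes cannot be read from these bulk values.

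Of the granzymes, serine proteases released from lytic granules, 8 were measured and only *Gzmb* and *Gzma* lay in the top 25%. *Gzmb*, the main inducer of apoptosis in target cells, had a log2 level of 11.49 ± 0.30 at percentile 99.3. It was lowest in replicate 4, at 11.21, had a median of 11.43 and was highest in replicates 6 and 7, both at 11.89. *Gzma*, a tryptase that acts by another route, had 9.004 ± 0.56 at percentile 89.3. It was highest in replicate 1, at 9.65, had a median of 9.25, and was lowest in replicate 6, at 8.09, so that the arrays spanned 2.94-fold. Replicates 6 and 7, the 2 highest arrays for *Gzmb*, were the 2 lowest for *Gzma*, at 8.09 and 8.42. *Gzmg* was lowest of the 8, at percentile 5.70. The other 5, *Gzmm*, *Gzmk*, *Gzmn*, *Gzmc* and *Gzmf*, lay between percentiles 35.6 and 56.0. Granzyme genes resemble one another in sequence, and their probes may in part read a neighbour, which was not examined.

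The granule apparatus around them was high apart from a few genes. Of 17 measured genes of lytic granules and death ligands, 13 lay in the top 25% and 9 in the top 10%, with a median percentile of 92.7. The highest was *Srgn*, serglycin, the proteoglycan that packs granzymes, at 11.76 ± 0.18 and percentile 99.6. *Nkg7*, a granule membrane protein, lay at 98.4, *Ctsc*, the cathepsin that activates granzymes, at 97.2 and *Ctsw*, a cathepsin of cytotoxic cells, at 96.7. *Serpinb9*, which protects the killer cell from granzyme B, lay at 88.4. *Prf1*, perforin, which opens the target membrane, had 6.02 ± 0.18 and lay only at percentile 56.1. *Prf1* was lowest in replicate 1, at 5.85, and highest in replicate 2, at 6.32. *Fasl*, the FAS ligand, was lowest of the 17, at percentile 49.6 with 5.39 ± 0.37. *Tnfsf10*, the death ligand TRAIL, lay at 79.0.

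**Figure D2:**
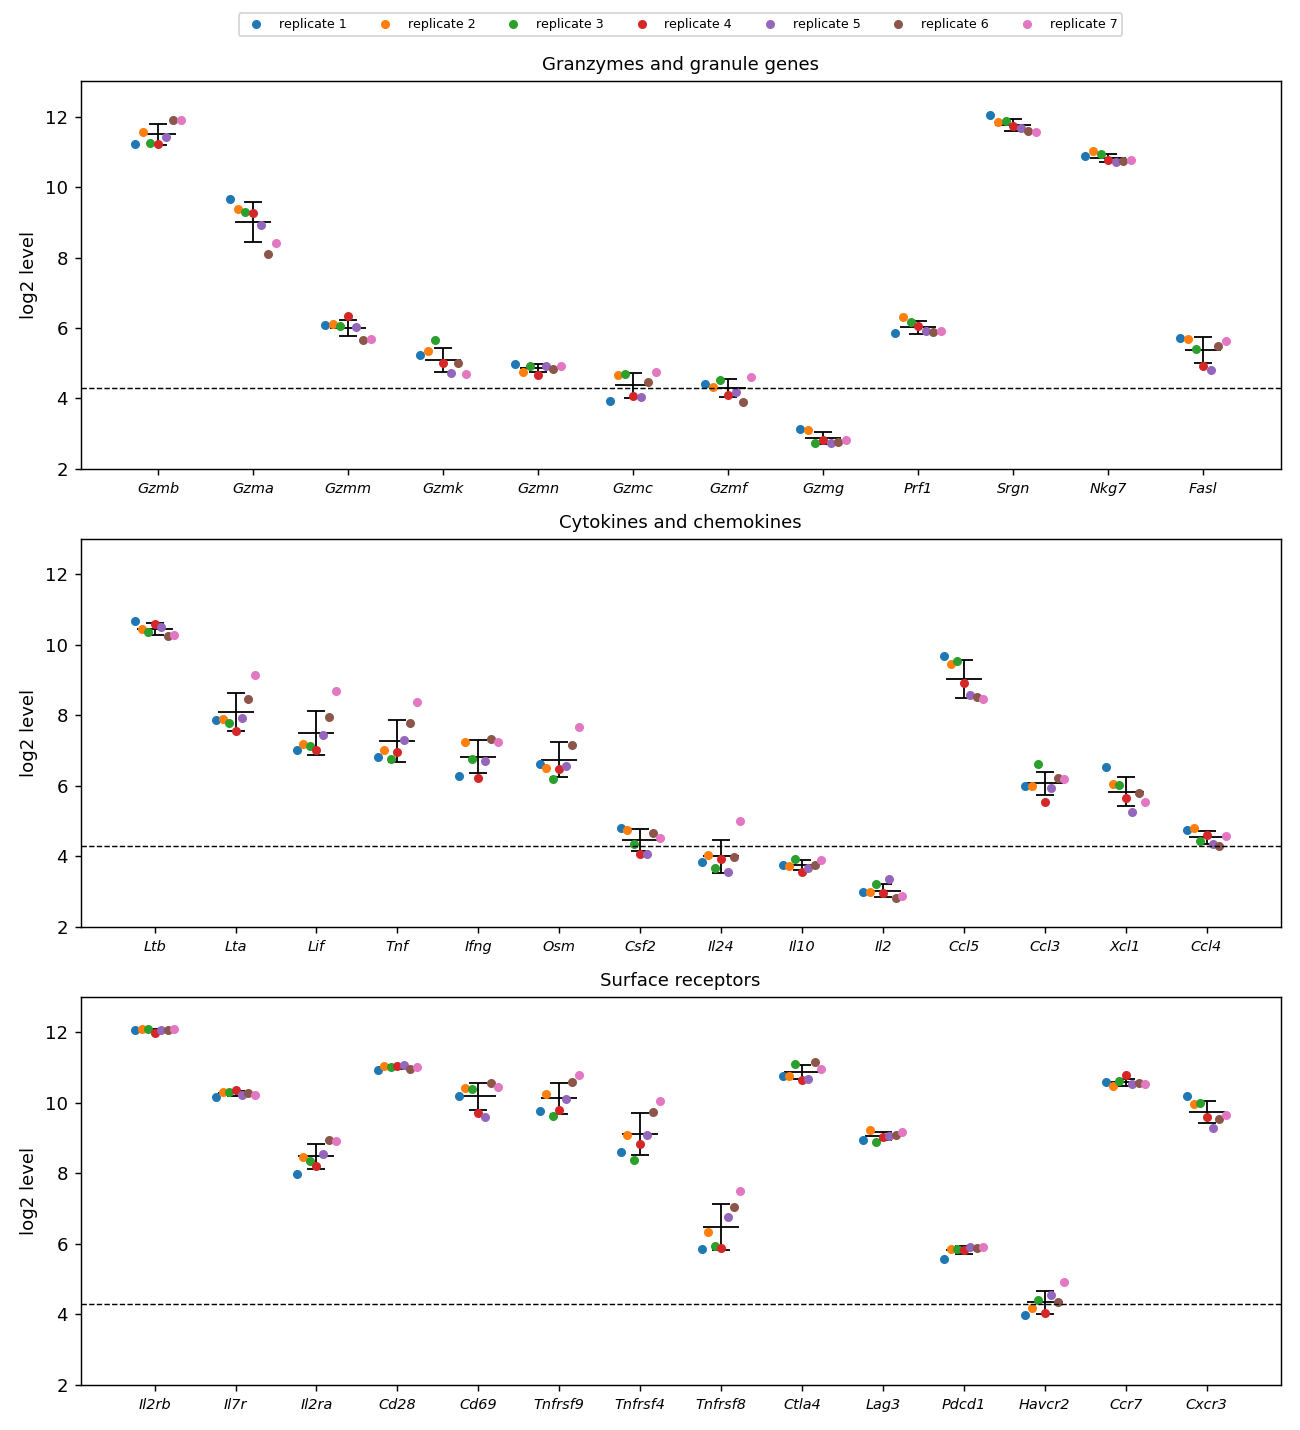
Log2 level in each of the 7 fresh-medium arrays (points, coloured by replicate), with the mean and SD as bars and the reference level of 4.29 as a dashed line. *Gzmb* lies between 11.21 and 11.89, *Prf1* between 5.85 and 6.32, and *Il2* between 2.82 and 3.36.

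Genes of cytokines and related ligands showed a wide range of levels, and some showed a wide spread between arrays. Of 18 measured cytokine genes, 5 lay in the top 25%. *Mif*, a broadly expressed inflammatory cytokine, was highest with 11.09 ± 0.09 at percentile 98.9, followed by *Ltb*, lymphotoxin beta, at 97.5 and *Tgfb1*, the growth factor TGF-beta 1, at 96.6. *Cd70*, the ligand of CD27, was lowest at percentile 2.16. *Ifng*, interferon gamma, had 6.83 ± 0.47 at percentile 64.9, from 6.22 in replicate 4 over a median of 6.77 to 7.34 in replicate 6. *Tnf*, tumour necrosis factor, had 7.29 ± 0.60 and ran from 6.76 in replicate 3 to 8.39 in replicate 7. *Lta*, lymphotoxin alpha, had 8.10 ± 0.54, from 7.56 in replicate 4 to 9.16 in replicate 7. *Lif*, a cytokine of the interleukin 6 family, ran from 7.01 in replicates 1 and 4 to 8.69 in replicate 7 and *Osm*, its relative, from 6.20 in replicate 3 to 7.68 in replicate 7. For these 4 genes, replicate 7 was the highest array and replicate 6 the next. *Il2*, the growth factor of T cells, was at 3.03 ± 0.19, percentile 9.35, with no array above 3.36. *Il3* and *Il10*, which encode a haematopoietic and an inhibitory cytokine, lay at percentiles 12.5 and 26.4, and *Csf2*, a granulocyte and macrophage growth factor, at 38.1.

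Chemokine genes were low except for 1. Of 12 measured, only *Ccl5*, the chemokine RANTES of effector and memory CD8+ cells, lay in the top 25%, with 9.03 ± 0.53 at percentile 89.5. It ran from 8.47 in replicate 7 over a median of 8.92 to 9.69 in replicate 1, and replicates 1, 2 and 3 were at or above 9.47 while the others were at or below 8.92. *Ccl3*, the second highest, lay at percentile 56.9, *Xcl1*, lymphotactin, at 54.2 and *Ccl4*, the partner of CCL3, at 39.2. *Cxcl9*, an interferon-induced chemokine, was lowest at percentile 26.9.

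Receptors for cytokines and their signalling were widely represented. *Il2rb*, the beta chain shared by the interleukin 2 and 15 receptors, was highest of 7 measured chains of the interleukin 2 family, with 12.07 ± 0.04 at percentile 99.8, and *Il9r* was lowest at 46.7. *Il2ra*, CD25, the high-affinity chain, had 8.49 ± 0.35 at percentile 84.2, from 7.97 in replicate 1 to 8.93 in replicate 6. *Il7r*, which serves survival of naive and memory cells, had 10.27 ± 0.06 at percentile 96.9. *Il12rb2*, the interleukin 12 chain induced in type 1 effectors, lay at 99.1 and *Ifngr1*, the binding chain for interferon gamma, at 99.2, the highest of 19 other cytokine receptor genes. *Il1r1*, the interleukin 1 receptor, was lowest of these at percentile 11.3. All 9 measured JAK and STAT genes lay in the top 25%, from *Stat4*, which acts downstream of interleukin 12, at percentile 97.4 to *Stat5b* at 79.9.

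Genes that interleukin 2 induces through STAT5 had the largest list SD with all 7 arrays, 0.251. Without replicate 7 it was 0.181, below the 0.210 of polyamine synthesis. *Cish*, which encodes a feedback inhibitor of cytokine signalling, had 6.42 ± 0.69. It was lowest in replicate 4, at 5.80, had a median of 6.22, and was highest in replicate 7, at 7.67, a span of 3.66-fold. *Socs2*, its relative, had 7.81 ± 0.57, from 7.18 in replicate 1 to 8.66 in replicate 7. The kinase genes *Pim1* and *Pim2*, by contrast, lay at percentiles 98.4 and 99.4 with SDs of 0.16 and 0.13. The mean deviation of the 8 genes of this list was -0.25 in replicate 3 and 0.43 in replicate 7.

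Activating and inhibitory receptors lay at different depths of the table. Of 17 costimulatory and activation receptors, 15 were in the top 25% and 12 in the top 10%, with a median percentile of 95.2. *Cd47*, the ligand of SIRP-alpha, was highest at percentile 99.1 and *Cd28*, the costimulatory receptor bound by the beads, had 11.01 ± 0.05 at percentile 98.7. *Cd69*, the early activation antigen, had 10.19 ± 0.38 and *Tnfrsf9*, 4-1BB, had 10.14 ± 0.44. *Tnfrsf4*, which encodes OX40, had 9.11 ± 0.60, from 8.38 in replicate 3 to 10.05 in replicate 7. *Tnfrsf8*, CD30, was lowest of the 17 by percentile, at 61.1, and it ran from 5.86 in replicate 1 to 7.50 in replicate 7. Of 15 inhibitory receptors and TOX genes, 6 lay in the top 25%. *Ctla4*, which competes with CD28 for its ligands, was highest at percentile 98.6 and *Cd200r1*, the CD200 receptor, was lowest at 22.8. *Lag3*, which binds MHC class II, lay at 89.7. *Pdcd1*, PD-1, had 5.83 ± 0.12 at percentile 54.0, with arrays between 5.56 and 5.92, and *Havcr2*, TIM-3, lay at 36.4. *Tox*, a chromatin factor of exhausted cells, lay at 87.4.

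The receptors that direct migration combined genes of naive and of effector cells. Of 18 chemokine receptors, *Ccr7*, the receptor for lymph node entry, was highest at 10.59 ± 0.10 and percentile 97.9, and *Cxcr3*, the receptor of type 1 effectors, lay at 94.5. *Ccr3*, an eosinophil receptor, was lowest at percentile 5.88. *Ccr9*, the gut homing receptor, had 7.04 ± 0.60, from 6.11 in replicate 6 to 7.71 in replicate 3, and *Ccr8* had 5.04 ± 0.58, from 4.46 in replicate 4 to 6.25 in replicate 7. Of 17 integrin and homing genes, *Selplg*, the ligand of selectins, was highest at percentile 99.6. *S1pr1*, which directs exit from lymph nodes, had 9.43 ± 0.35 at percentile 92.6, with replicates 6 and 7 at 8.95 and 8.93 and the other arrays at or above 9.50. *Itgax*, the integrin CD11c of dendritic cells, was lowest at percentile 21.9.

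Genes linked to naive cells and quiescence were high in these activated cells. Of 19 measured, 17 lay in the top 25% and 12 in the top 10%, with a median percentile of 92.6. *Foxp1*, a factor that holds naive cells in quiescence, had 11.46 ± 0.07 at percentile 99.3 and *Lef1*, a factor of naive and memory-precursor cells, lay at 97.6. *Klf2*, which keeps homing genes on, lay at percentile 81.8 and *Foxo3* was lowest at 64.0. Of 18 effector and memory transcription factors, *Hif1a*, the oxygen-sensitive subunit of HIF-1, was highest at percentile 98.6, and *Prdm1*, BLIMP-1, the factor of terminal effectors, was lowest at 51.1. *Eomes*, the relative of T-bet, lay at 85.2, *Id2*, an effector regulator, at 92.4, and *Irf4*, whose level follows receptor signal strength, had 8.38 ± 0.38. In the list of NFAT, AP-1, EGR and NF-kB genes, *Egr1*, an immediate early gene, had 7.90 ± 0.70 and was at 6.86 and 7.01 in replicates 4 and 5 but at or above 7.94 in the other arrays. *Fosb*, an AP-1 subunit, had 6.51 ± 0.62, from 5.76 in replicate 5 to 7.36 in replicate 1.

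Glycolysis genes were among the highest of the table. Of 14 measured main enzymes and glucose transporters, 13 lay in the top 25% and 12 in the top 10%, with a median percentile of 98.97. *Gapdh* was highest at 12.31 ± 0.06, and *Ldha*, which makes lactate, had 11.77 ± 0.10 at percentile 99.6. *Slc2a1*, the glucose transporter GLUT1, lay at percentile 98.96. *Pfkm*, the muscle type of phosphofructokinase, was lowest at 70.3, and *Hk2*, the inducible hexokinase, lay at 75.9. Isozymes of other tissues were low, with 1 of 13 in the top 25%: *Aldoc*, aldolase C, at percentile 97.0. *Ldhc*, the lactate dehydrogenase of testis, was lowest at 5.47. *Slc16a3*, which exports lactate, lay at percentile 96.9 and its chaperone *Bsg*, basigin, at 99.7. Of 24 subunits of oxidative phosphorylation, 22 lay in the top 25%, from *Atp5a1*, a subunit of ATP synthase, at percentile 99.5 to *Ndufb8*, a complex I subunit, at 65.2. Of 19 genes of the tricarboxylic acid cycle, 14 lay in the top 25%, with a median percentile of 87.4, from *Idh3g*, a subunit of isocitrate dehydrogenase, at 97.8 to *Sucla2*, a subunit of succinyl-CoA ligase, at 56.1. Fatty acid oxidation lay lower, with 11 of 18 in the top 25%. *Hadha*, a subunit of the mitochondrial trifunctional protein, was highest at percentile 95.9, and *Ppargc1a*, the coactivator of mitochondrial biogenesis, was lowest of its 18 genes at percentile 16.1. *Cpt1a*, which carries fatty acids into mitochondria, lay at 78.6.

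Genes of growth and division were mostly in the top 25%. *Slc7a5*, the leucine transporter of activated T cells, had 10.04 ± 0.39 at percentile 96.0, from 9.54 in replicate 3 to 10.52 in replicate 7. *Psat1* and *Shmt2*, enzymes of serine and one-carbon metabolism, lay at percentiles 97.5 and 94.7. *Srm*, spermidine synthase, had 9.03 ± 0.52, from 8.51 in replicate 2 to 9.78 in replicate 7, and *Odc1*, the first enzyme of the polyamine pathway, had 8.87 ± 0.22. *Myc*, which drives growth genes in activated T cells, had 11.18 ± 0.28 at percentile 98.95, lowest in replicate 4 at 10.81 and highest in replicate 7 at 11.59. For cell division, *Mki67*, the marker Ki-67, had 11.43 ± 0.11 at percentile 99.3 and *Pcna*, the replication clamp, 11.78 ± 0.10 at 99.6. Of 21 mitosis genes, 21 lay in the top 25% and 17 in the top 10%, and of 23 replication genes 18 lay in the top 25%. The lowest were *Cenpf*, a kinetochore protein, at percentile 75.4 among the mitosis genes, and *Rfc3*, a subunit of the clamp loader, at 64.3 among the replication genes. *Cdkn1b*, the inhibitor p27 of quiescent cells, was highest of 10 cell cycle inhibitors and their kin at percentile 95.1, and *Cdkn2a*, which encodes p16 and p19ARF, was lowest at 8.85. *Cdkn1a*, p21, ran from 8.02 in replicate 3 to 9.24 in replicate 7. *Bcl2*, the survival factor, had 10.54 ± 0.42, from 10.05 in replicate 1 to 11.15 in replicate 6.

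The lists of interferon-induced genes lay at different levels. These are levels without a comparison, and a response to either type of interferon was not tested. Of 14 genes induced by interferon gamma, 13 lay in the top 25% and 11 in the top 10%. *Gbp2*, a guanylate-binding protein, was highest with 11.16 ± 0.05 at percentile 98.9, and *Irf1*, the factor at the head of the response, lay at 97.3. *Cxcl10* was lowest at 45.5. Of 18 genes stimulated by type I interferon, 2 lay in the top 25%. *Bst2*, tetherin, was highest at percentile 90.5, *Oasl1* was lowest at 19.9, and *Isg15*, a ubiquitin-like protein, lay at 39.4. All 16 MHC class I and peptide loading genes were in the top 25%, and *B2m*, the light chain of MHC class I, had the highest mean of all genes, 12.92 ± 0.05. *Psmb10*, an immunoproteasome subunit, was lowest of the 16 at percentile 87.6. The chaperone *Hspa5*, BiP, lay at percentile 98.97.

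**Figure D3:**
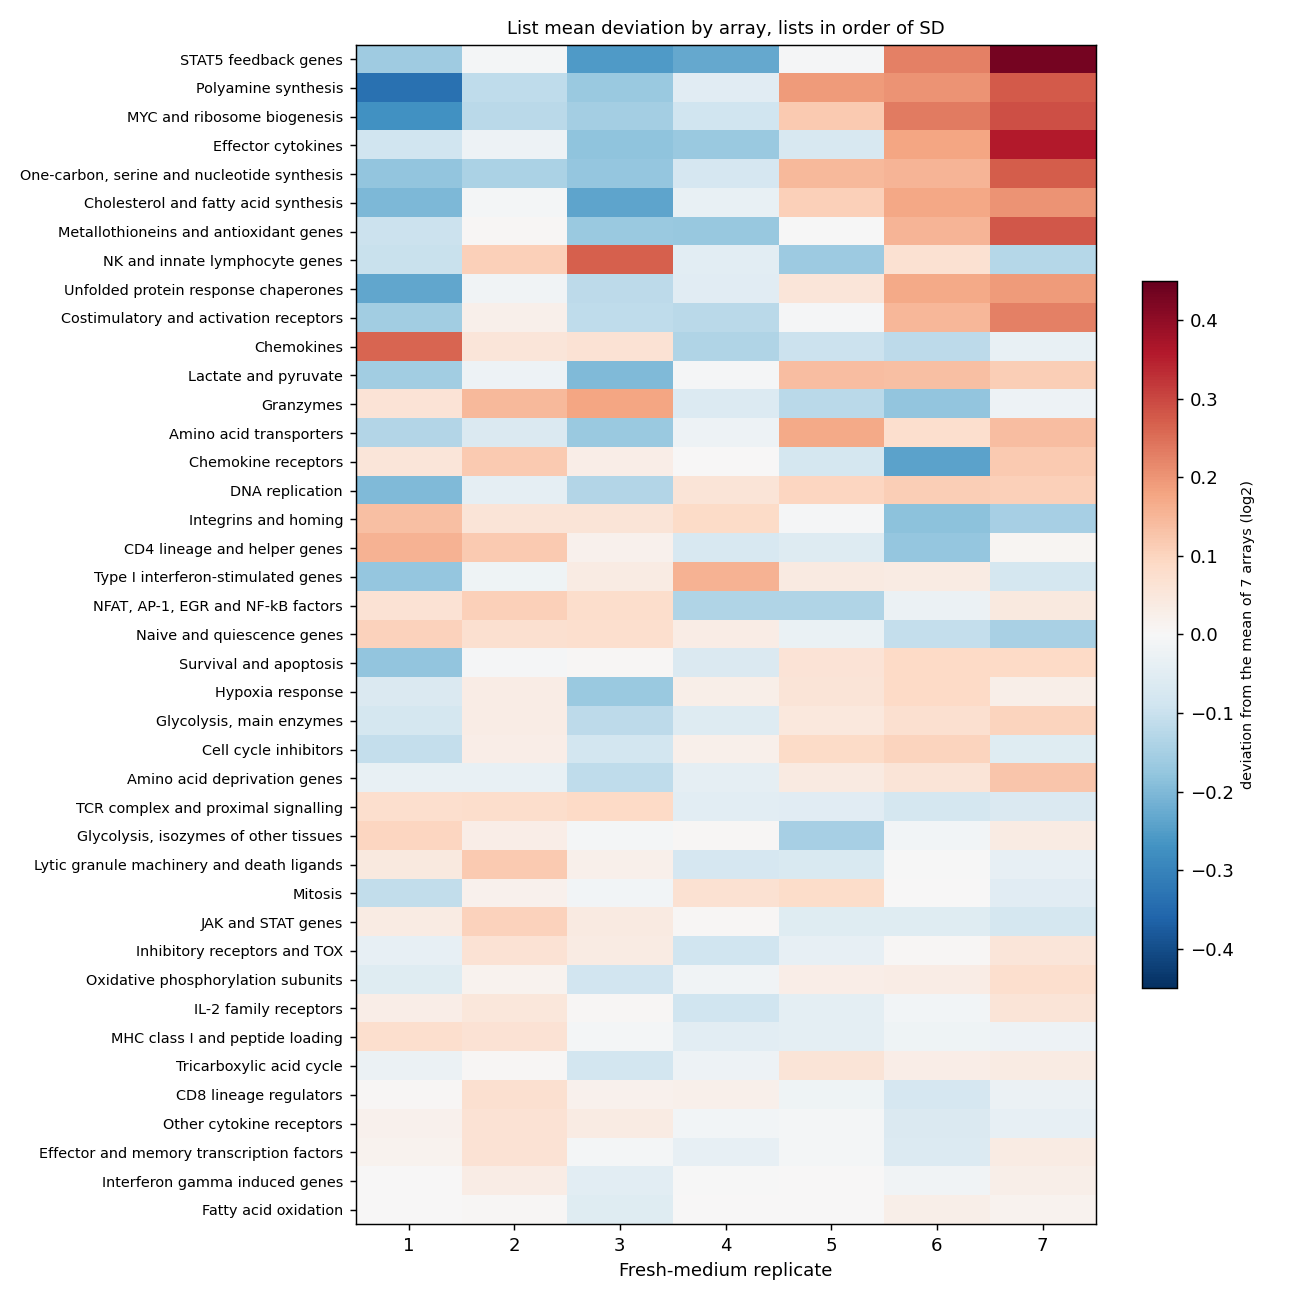
Mean deviation of each list from its mean over the 7 arrays, in log2 units, by replicate (members above the reference level). Lists run from the largest SD at the top (STAT5 feedback genes, from -0.25 to 0.43) to the smallest at the bottom (fatty acid oxidation, from -0.05 to 0.03).

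The arrays differed from one another mainly in 2 ways. Correlations between pairs of arrays over all genes were between 0.984 and 0.996, and no 2 arrays held identical values. Replicate 1 stood apart. Its SD over all clusters was 2.29, against 2.34 to 2.38 in the others, its median over the genes of other tissues was 4.53, against 4.24 to 4.48, and among genes above the reference level it was the highest array in 24.7% and the lowest in 26.1%. The first principal component, with 45.1% of the variance between arrays, put replicates 1, 2 and 3 at 0.77, 0.15 and 0.16. It put replicates 4, 5, 6 and 7 at -0.20, -0.48, -0.18 and -0.22. The next component, with 18.7%, put replicates 6 and 7 at 0.49 and 0.57 and replicate 4 at -0.56. Over genes above the reference level, deviations from the gene means correlated at 0.09 to 0.17 among replicates 1 to 3. Between these and replicates 4 to 7 the correlations were -0.62 to -0.15, and among replicates 4 to 7 they were -0.24 to 0.38. What set these 2 blocks apart was not tested. A further quantile normalization over the 7 arrays, which gives them 1 common distribution, left 80 variable genes (SD of at least 0.5) against 64 without it, and the SDs of 15 lists examined were 0.826 to 1.198 times those without it.

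Gene lists differed in how much they moved between arrays, also within 1 kind. Among lists of metabolism, the SD was 0.23 for polyamine synthesis and 0.03 for fatty acid oxidation. Over 46 lists with at least 5 members above the reference level, the SD of the array means had a median of 0.0987 and ran from 0.03 to 0.25. Replicate 7 was the highest array in 15 lists and replicate 3 the lowest in 12. The list of MYC and ribosome biogenesis genes had *Npm1*, nucleophosmin, as its highest member, at percentile 99.3, and *Bop1*, a factor of the large ribosomal subunit, as its lowest, at 51.6. In this list the deviation ran from -0.27 in replicate 1 to 0.29 in replicate 7, and 10 of its 19 members were highest in replicate 7, against 13.2% of all genes above the reference level. In one-carbon, serine and nucleotide synthesis it ran from -0.18 in replicate 1 to 0.27 in replicate 7. Replicates 1 and 3 were at the low end in these growth lists, and replicates 5, 6 and 7 at the high end. Lists of naive and quiescence genes went the other way, from 0.10 in replicate 1 to -0.15 in replicate 7. Chemokine genes had their highest deviation in replicate 1, at 0.26, and their SD of 0.141 was 0.0874 without that array. The SD of the effector cytokine list was 0.197 with all arrays and 0.130 without replicate 7. The SD was 0.03 for interferon gamma induced genes and for fatty acid oxidation, and 0.0104 for the latter without replicate 3. With each array centred on its median, these SDs were 0.0530 and 0.0529, while that of MHC class I and peptide loading genes went from 0.0500 to 0.0218, so the order of the least variable lists depends on the centring.

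Among the 12588 genes above the reference level, 64 had an SD of at least 0.5, which is 0.508% of them. The median SD was 0.17. Without replicate 1 the count was 34, and without replicates 2, 3 or 6 in turn it was 105, 109 and 99. Of the 64, replicate 1 was the lowest array in 32 and the highest in 14, replicate 5 was the highest in 17, and replicate 7 in 16. The largest SD belonged to *Galnt3*, an enzyme that starts O-linked glycans, with 5.39 ± 0.74, from 4.09 in replicate 1 to 6.27 in replicate 5. *Cd80*, a ligand of CD28 and CTLA4 that activated T cells can carry, ran from 6.03 in replicate 1 to 8.11 in replicate 5. *Pno1*, a factor of ribosome assembly, was at 6.15 in replicate 1 and at or above 7.29 in the others. *Cd24a*, a small glycoprotein of immature lymphocytes, ran from 4.02 in replicate 1 to 5.94 in replicate 7, and *Kit*, the stem cell factor receptor, from 4.83 in replicate 3 to 6.76 in replicate 7. *Lama5*, a laminin chain, went the other way, with 5.64 in replicate 1 and 3.60 in replicate 4.

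**Figure D4:**
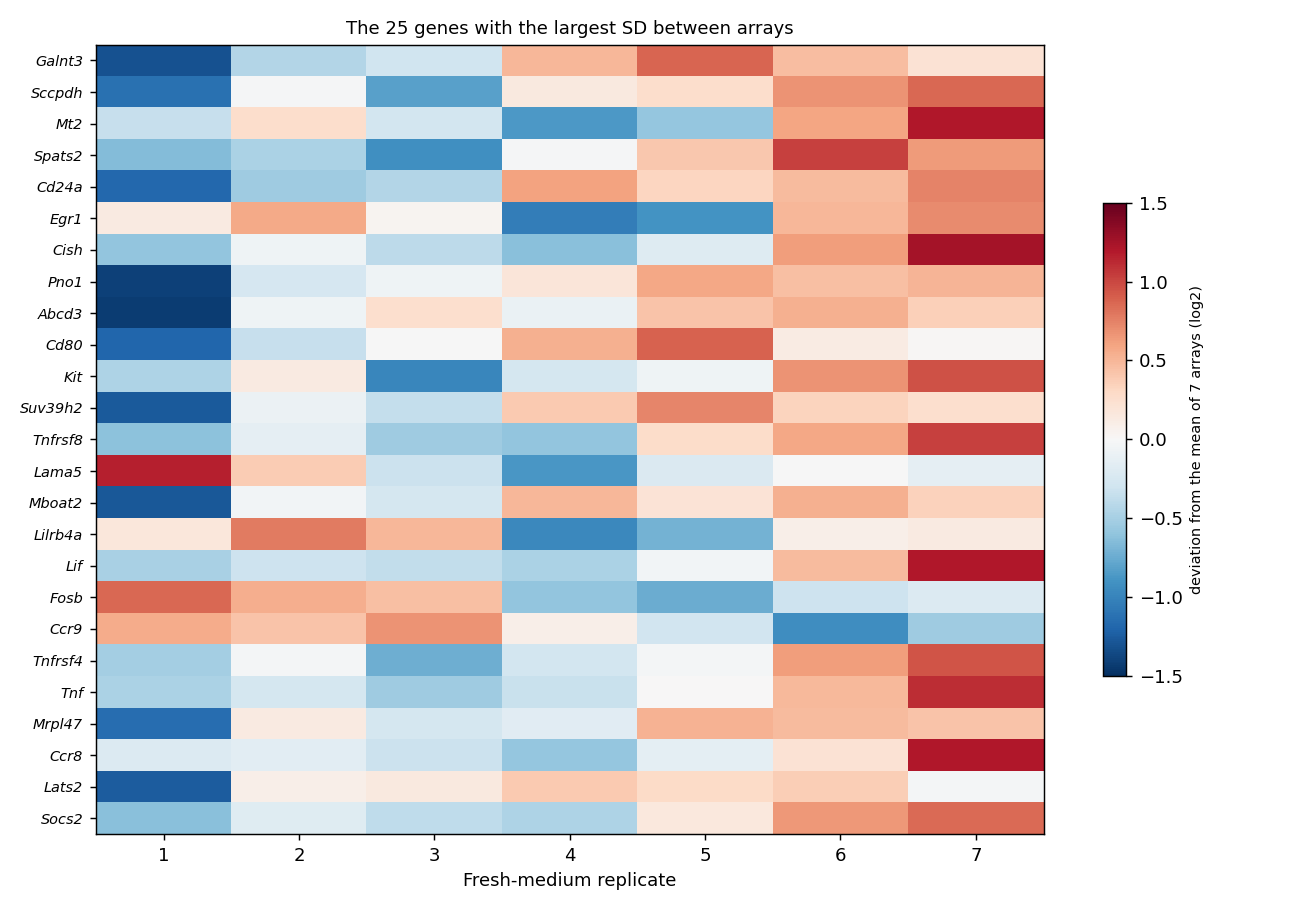
Deviation of the 25 genes with the largest SD from their mean over the 7 arrays, in log2 units, by replicate. Replicate 1 is the lowest array in 13 of the 25 and replicate 7 the highest in 12.

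Metallothioneins, small cysteine-rich proteins that bind zinc and other metals, gave the largest SD among named list members. *Mt2* had 9.43 ± 0.72 at percentile 92.6, with a lowest value of 8.57 in replicate 4, a median of 9.16 and a highest of 10.64 in replicate 7, which is a span of 4.19-fold. *Mt1*, its neighbour and near relative, had 10.65 ± 0.25 at percentile 98.0, from 10.35 in replicate 4 to 11.14 in replicate 7. Both genes were thus lowest in replicate 4 and highest in replicate 7, and replicate 6 was next to highest in both. The probes of the 2 genes may in part read each other, which was not examined. The zinc exporter *Slc30a1*, which the same metal-responsive factor induces, had 5.70 ± 0.20. It was also lowest in replicate 4, at 5.32, but highest in replicate 1, at 5.96.

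Because the 2 metallothionein genes shared their highest and lowest arrays, their promoters are shown as the 250 bases before the start of transcription, from RefSeq on GRCm38.p6, both on the plus strand, at chr8:94178839-94179088 for *Mt1* and chr8:94172368-94172617 for *Mt2*. Capitals mark matches, on either strand, to TGCACNC or TGCGCNC, the core of the metal response element.
Mt1: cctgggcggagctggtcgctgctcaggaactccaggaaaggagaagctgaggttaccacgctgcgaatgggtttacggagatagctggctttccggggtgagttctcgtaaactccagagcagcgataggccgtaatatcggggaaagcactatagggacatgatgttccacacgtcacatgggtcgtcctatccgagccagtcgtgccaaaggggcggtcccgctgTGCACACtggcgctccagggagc
Mt2: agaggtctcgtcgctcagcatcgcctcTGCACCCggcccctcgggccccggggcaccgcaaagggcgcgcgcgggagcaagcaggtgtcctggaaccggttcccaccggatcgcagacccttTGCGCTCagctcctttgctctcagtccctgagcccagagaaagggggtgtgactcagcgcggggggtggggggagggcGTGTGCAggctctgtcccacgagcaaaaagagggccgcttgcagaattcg
In these windows *Mt1* had 1 match, which begins at position -23 from the RefSeq start, and *Mt2* had 3, which begin at -223, -128 and -50. Bases outside the windows, among them those after the RefSeq start, were not searched. The counts depend on that start and do not rank the promoters by their number of elements. In 32851 promoter windows of this length, from 27025 genes, 21.4% held at least 1 match and 1.26% held at least 3. Some genes have several windows, and 1 chromosome was left out of this count. A match is a sequence of letters and no evidence of binding.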

How the data were processed

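Per the submitters' processing notes, the authors used the package oligo and RMA (no version is stated), and the deposited table holds 1 log2 value per transcript cluster and array. In RMA, background is corrected, arrays are brought to a common distribution and the probes of a cluster are combined, which compresses low values. Groups and replicate numbers were taken from the labels. For the 55 symbols with several transcript clusters, the cluster of highest mean across the 21 arrays represents the gene. The 2631 clusters without a symbol were not used.

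Means, SDs, percentiles and list summaries were computed with Python 3.11.15, numpy 2.4.6 and pandas 2.3.3, and figures were drawn with matplotlib 3.10.9. No group comparison and no test between genes was made. Scripts were tested on simulated data. Members of lists were matched by symbol. The 51 lists and their members were chosen with earlier results of these data known. Named genes are members of those lists, the 4 markers, and the 25 genes highest in level or SD, leaving out clone names, small RNAs and receptor segments. For lists described by a count of members in the top 25%, the members of highest and lowest percentile are named, apart from the pooled markers of other cells; of further lists only single members are named. The number of arrays limits the precision.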

Additional observations from a re-analysis of the deposited data

Results flagged for a closer look

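The arrays of 1 group of 7 were screened for a value far from the others: the gap to the nearest array, divided by the range, had to exceed 0.568. 165 genes and 15 lists named in the text were screened and 9 exceeded it. Chance alone marks about 1 in 20 such groups, which is the share found here. Replicate 1 was lowest for *Pdcd1*, at 5.56 against 5.82 to 5.92, and for *Pno1*, at 6.15 against 7.29 to 8.12. It was highest for *Il9r*, at 5.55 against 4.88 to 5.17. Replicate 3 was lowest for the lactate exporter *Slc16a3*, at 10.01 against 10.26 to 10.41, and for the glucose transporter *Slc2a1*, at 10.95 against 11.16 to 11.31. The list of fatty acid oxidation genes was also lowest there, with a mean deviation of -0.054 against 0.00045 to 0.026. Replicate 4 was highest for *Ccr7*, at 10.80 against 10.49 to 10.62, and lowest for *Il2rb*, at 11.99 against 12.06 to 12.11, and for *Sucla2*, at 5.77 against 6.01 to 6.11.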

How the results depend on the processing

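Choosing transcript clusters otherwise, quantile normalization over the 7 arrays alone, medians in place of means, and all genes in place of those above the reference level moved no level, count or list SD beyond the limits set for it. The limit was the SD over arrays for a gene level or list percentile, and a fixed fold change for a count or list SD. It is wide: 80 variable genes after quantile normalization, against 64, counted as unmoved. Choosing clusters otherwise could change the values of only the 55 symbols with several clusters. Centring each array on its median moved the list SD to 0.0530 for interferon gamma induced genes, 0.0529 for fatty acid oxidation and 0.0218 for MHC class I and peptide loading. With an SD of at least 0.4, 337 genes counted as variable. Leaving out 1 array at a time gave between 34 and 109 variable genes, a chemokine list SD of 0.0874 to 0.153, an effector cytokine list SD of 0.130 to 0.215, a fatty acid oxidation list SD of 0.0104 to 0.0283 and a housekeeping median percentile from 99.66 to 99.68. The reference level decides how many genes lie above it. Taken at the 99th percentile of chemosensory receptors, it left 1 neutrophil, 4 stromal and 11 other-tissue genes above it. Taken from genes of other tissues, it left 6743 genes in all, with 3 helper, 3 natural killer, 1 macrophage, 2 dendritic cell, 0 neutrophil, 1 stromal and 2 other-tissue genes.

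No paired analysis was possible because no result comes from a test between groups. Replicate numbers are shared with the other media. Over 12588 genes, deviations of same-numbered arrays correlated at 0.05 to 0.48 with dendritic cell medium and at -0.13 to 0.27 with leukaemia medium, and 6 and 5 of the 7 same-numbered correlations were over 0.1. Their medians were 0.33 and 0.13, against -0.13 and -0.01 for different numbers, and 2 and 3 of 7 arrays correlated best with their own number. In dendritic cell medium the correlations followed blocks of numbers, as did those among the fresh arrays. Fresh replicates 1 to 3 correlated at 0.19 to 0.48 with its arrays 1 to 3. With its arrays 4 to 7 they correlated at -0.43 to -0.16. Fresh replicates 5 to 7 correlated at -0.47 to -0.22 with its arrays 1 to 3. With its arrays 4 to 7 they correlated at 0.12 to 0.43. Fresh replicate 4 lay between -0.09 and 0.08 with all of its arrays. Of the 25 genes of largest SD, 8 had the same numbered array highest in dendritic cell medium, and 8 the same lowest. The share over all genes was not computed, so these counts are not read as a result about the 25. Since not every same-numbered correlation was over 0.1 and the labels name no shared mouse, the numbers were not taken to pair the samples. The limits are these: 1 group without resting cells, no detection call, compressed low values, and percentiles that rest on different probes.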
